A study of Homo sapiens with 6 samples.

Results

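The mitochondrial ribosomal proteins are the protein components of the ribosome inside mitochondria, and their messenger RNAs were followed here in human cardiomyocytes kept in 2 culture media. Genes were taken by symbol: every deposited row whose name is MRPL (large subunit) or MRPS (small subunit) followed by a number and, where present, a letter A, B or C. This gave 78 of the 38557 genes in the files, 49 MRPL and 29 MRPS, of which 77 had enough reads to be tested. The cells were cardiomyocytes labelled as wild type and made from induced pluripotent stem cells of the established human line WTC11. One group of 3 libraries came from cultures in RPMI plus B27 and the other group of 3 from cultures in DMEM plus fatty acids, with biological replicates numbered 1 to 3 in each medium. All libraries share 1 cell line, which the labels name without giving the differentiation protocol, any purification of the cultures, the composition of either medium or the time spent in it. All counts are from whole cultures, in which fewer cells of a type and less RNA per cell cannot be told apart.

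Mitochondrial ribosomes are built in the mitochondrial matrix from ribosomal RNAs encoded by mitochondrial DNA and from proteins that are all encoded in the nucleus, made in the cytosol and imported. They translate only the few proteins that mitochondrial DNA encodes, which are core subunits of the respiratory chain and of ATP synthase, so a cell that depends on oxidative metabolism, as heart muscle does, needs them in good supply. The small subunit holds the messenger RNA and its decoding centre, and the large subunit joins amino acids and releases the growing chain through an exit tunnel beside the inner membrane. Some of the proteins descend from bacterial ribosomal proteins and others were added during the evolution of mitochondria, and inherited defects in several of them cause cardiomyopathy.

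The start regions of these genes are given first because many, though not all, carry 1 of 2 short sequences that the choice by name did not use. The 78 genes are spread over 21 chromosomes in RefSeq, with 8 each on chromosomes 1, 2 and 17 and fewer on the others. RefSeq promoter windows (GRCh38.p14, from 250 bases before to 50 bases after the annotated start) were matched for 70 of the 78 genes; MRPL10, MRPL13, MRPL15, MRPL2, MRPL21, MRPL23, MRPL35 and MRPS28 had no entry. In 3 windows the core recognised by YY1, a zinc finger factor, lies just after the start. They are MRPL11 (a protein of the stalk base, chr11:66438806-66438835, minus strand), MRPS7 (a small subunit protein with a bacterial counterpart, chr17:75261887-75261916, plus strand) and MRPL45 (which holds the large subunit to the inner membrane, chr17:38297170-38297199, plus strand). Capitals mark the letters AAGATGG on the gene's own strand.

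MRPL11: acctctggcccAAGATGGtggcgcccagag
MRPS7: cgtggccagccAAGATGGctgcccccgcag
MRPL45: tttgcgggaacAAGATGGcagcccccatac

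The next 3 windows show the core bound by ETS factors, the family of GABPA, a regulator of nuclear genes for mitochondria. They belong to MRPL58 (a peptidyl-tRNA hydrolase that frees stalled ribosomes, chr17:75012651-75012680, plus strand), MRPL33 (a small large-subunit protein, chr2:27771700-27771729, plus strand) and MRPL3 (a large subunit protein that can be defective in cardiomyopathy, chr3:131502985-131503014, minus strand). Capitals mark the letters CCGGAAG.

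MRPL58: ggaagcgcccgCCGGAAGcagtcgcaagac
MRPL33: cgggccgtgccCCGGAAGcagttgttgttg
MRPL3: tgtaaaacgcaCCGGAAGtgggtccggcgg

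MRPS18A, 1 of the 3 human relatives of bacterial protein S18, carries both cores, and so does MRPS10, a small subunit protein. The ETS core comes first in each gene, before the start, and the YY1 core follows it (chr6:43687804-43687833 and chr6:43687764-43687793 for MRPS18A, chr6:42217865-42217894 and chr6:42217834-42217863 for MRPS10, all on the minus strand). Each pair of lines gives the ETS window and then the YY1 window.

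MRPS18A: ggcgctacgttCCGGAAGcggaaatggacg
MRPS18A: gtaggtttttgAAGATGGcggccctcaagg
MRPS10: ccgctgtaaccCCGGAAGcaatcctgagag
MRPS10: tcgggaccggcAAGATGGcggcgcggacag

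Read on either strand, CCGGAAG was present in 29 of the 70 windows (41.4%), against 14.2% of all 15843 promoter windows of coding genes. AAGATGG, read the same way, was present in 23 of 70 (32.9%), against 6.40% of all windows. At least 1 of the 2 cores stood in 43 windows (61.4% against 19.4%) and both stood in 9 (12.9% against 1.27%). The core of NRF1, the letters GCGCA followed at once by their reverse complement, so that both strands read the same, was found in 1 window, that of MRPL17 (1.43% against 1.75% of all windows). The 2 shorter cores can share the letters AAG where one runs into the other, which is not so in the windows shown, and all matches describe letters, not binding.

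In most windows that hold it, the YY1 core lay just after the start. It began within 40 bases after the start, on the gene's own strand, in 16 of 70 windows (22.9%), against 2.54% of all windows, and on the other strand in 0 of 70, against 0.467%. In the other 7 of the 23 windows with the core it lay before the start, on either strand. This stretch after the start was chosen after the positions had been seen. The letters AAGATGG contain ATG, and in 12 of those 16 windows (75%) this ATG is the annotated start codon, as it is in 280 of 403 windows of all coding genes with the core in that place (69.5%). The ETS core began between 60 bases before and 10 bases after the start in 24 windows (34.3% against 7.95%). A gene on the opposite strand started within 1000 bases upstream of 26 of the 70 (37.1% against 19.9% of all). MRPL46, a large subunit protein, and MRPS11, a small subunit protein, form such a pair with each other, with starts 320 bases apart.

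**Figure D1:**
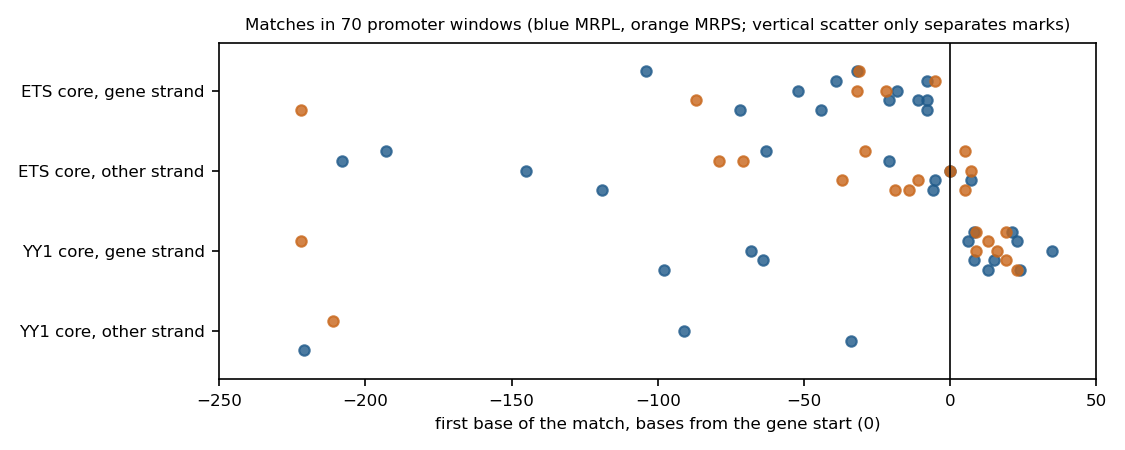
Position of each match to the ETS core (CCGGAAG) and the YY1 core (AAGATGG) in the 70 promoter windows, in bases from the annotated start on the horizontal axis, with 1 row for each core and strand, blue for MRPL and orange for MRPS genes. Matches to the YY1 core on the gene's own strand gather within 40 bases after the start, where 16 windows hold 1, while matches to the ETS core lie on both strands and mostly shortly before the start.

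Gene counts per library ran from 24041453 to 27950284 in RPMI plus B27 and from 23232324 to 31035389 in DMEM plus fatty acids. Levels are CPM, a gene's reads scaled to a common library size, with factors from the trimmed mean of M values (TMM), means are given ± SD over 3 libraries, and log2 fold changes, given ± SE, are positive where the DMEM plus fatty acids libraries were higher. Of 12 cardiomyocyte markers all were read in every library, with a summed level of 30603 to 37325 CPM in RPMI plus B27 and 24581 to 34376 CPM in DMEM plus fatty acids, and none of them passed the test between media in edgeR without the replicate block. In that fit 5 of the 12 were fitted higher and 7 lower, with a median of -0.08. With the block MYH7 (adjusted p 0.0359) and ACTN2 (adjusted p 0.0494), both of the sarcomere, were lower in DMEM plus fatty acids in edgeR, where 3.42% of all genes were called lower. Markers of fibroblasts and stroma summed to 4365 to 8612 CPM in RPMI plus B27, highest in replicate 1, and to 762 to 1964 CPM in DMEM plus fatty acids. Of the 14 tested, 13 were fitted lower there, 7 past the test in edgeR without the block, against 1.07% of all genes. Smooth muscle markers (2530 to 3400 against 852 to 1773 CPM, 10 of 10 fitted lower, 3 past the test) and epicardial markers (1972 to 2394 against 882 to 1097 CPM, 5 of 5 fitted lower, 1 past the test) moved alongside. The stromal gene FAP and the epicardial genes WT1, UPK3B and MSLN were at or near 0. Endothelial markers summed to 30.1 to 239.8 CPM against 115.3 to 463.7 CPM with PECAM1, CDH5 and VWF near 0. Of the 3 endothelial markers tested, 2 were fitted lower and 1 higher (median -0.97). With the block 1 was called higher, against 1.36% of all genes. The pluripotency genes POU5F1, NANOG, SOX2 and LIN28A were near 0. The part of these other cell types in the differences described next was not tested.

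The large majority of mitochondrial ribosomal protein genes sat slightly higher in DMEM plus fatty acids, and none of them passed the test alone in edgeR without the replicate block. With the block 1 of the 77 was called higher, against 1.36% of all genes. In edgeR's quasi-likelihood test without the block 0 of the 77 tested genes passed a Benjamini-Hochberg adjusted p of 0.05 in either direction, against 0.292% of all 16107 tested genes called higher and 1.07% called lower. At an unadjusted p under 0.05 there were 14 higher and 0 lower, or 18.2% higher, against 7.7% of all genes higher and 9.98% lower. The fitted log2 fold change was above 0 in 65 of 77 genes (84.4%), against 51.0% of all genes. The median of the 77 was 0.15, against 0.01 over all genes, and the median standard error of 1 gene was 0.14. In this fit without the block the typical difference was thus about as large as its own error.

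The 3 libraries of one medium and the 3 of the other did not overlap for 24 of the 77 genes. In 22 of them (28.6%) every DMEM plus fatty acids library was above every RPMI plus B27 library, and in MRPL17 and MRPL14 every one was below; of all genes 12.8% were apart upwards and 12.8% downwards. Comparing libraries with the same replicate number, 40 genes (51.9%) were higher in DMEM plus fatty acids in all 3 pairs and 3 were lower in all 3, against 25.8% and 24.0% of all genes. The pairs differed in size: the median log2 difference of the 77 genes was 0.24 for replicate 1, 0.12 for replicate 2 and 0.08 for replicate 3. Replicate 1 of RPMI plus B27 was the lowest of the 6 libraries for 51 of the 77 genes, and replicate 2 of DMEM plus fatty acids was the highest for 35. Without that RPMI plus B27 library 52 of 77 were above 0 and the median was 0.11. The same library had the highest sum of fibroblast and stromal markers, 8612 CPM.

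**Figure D2:**
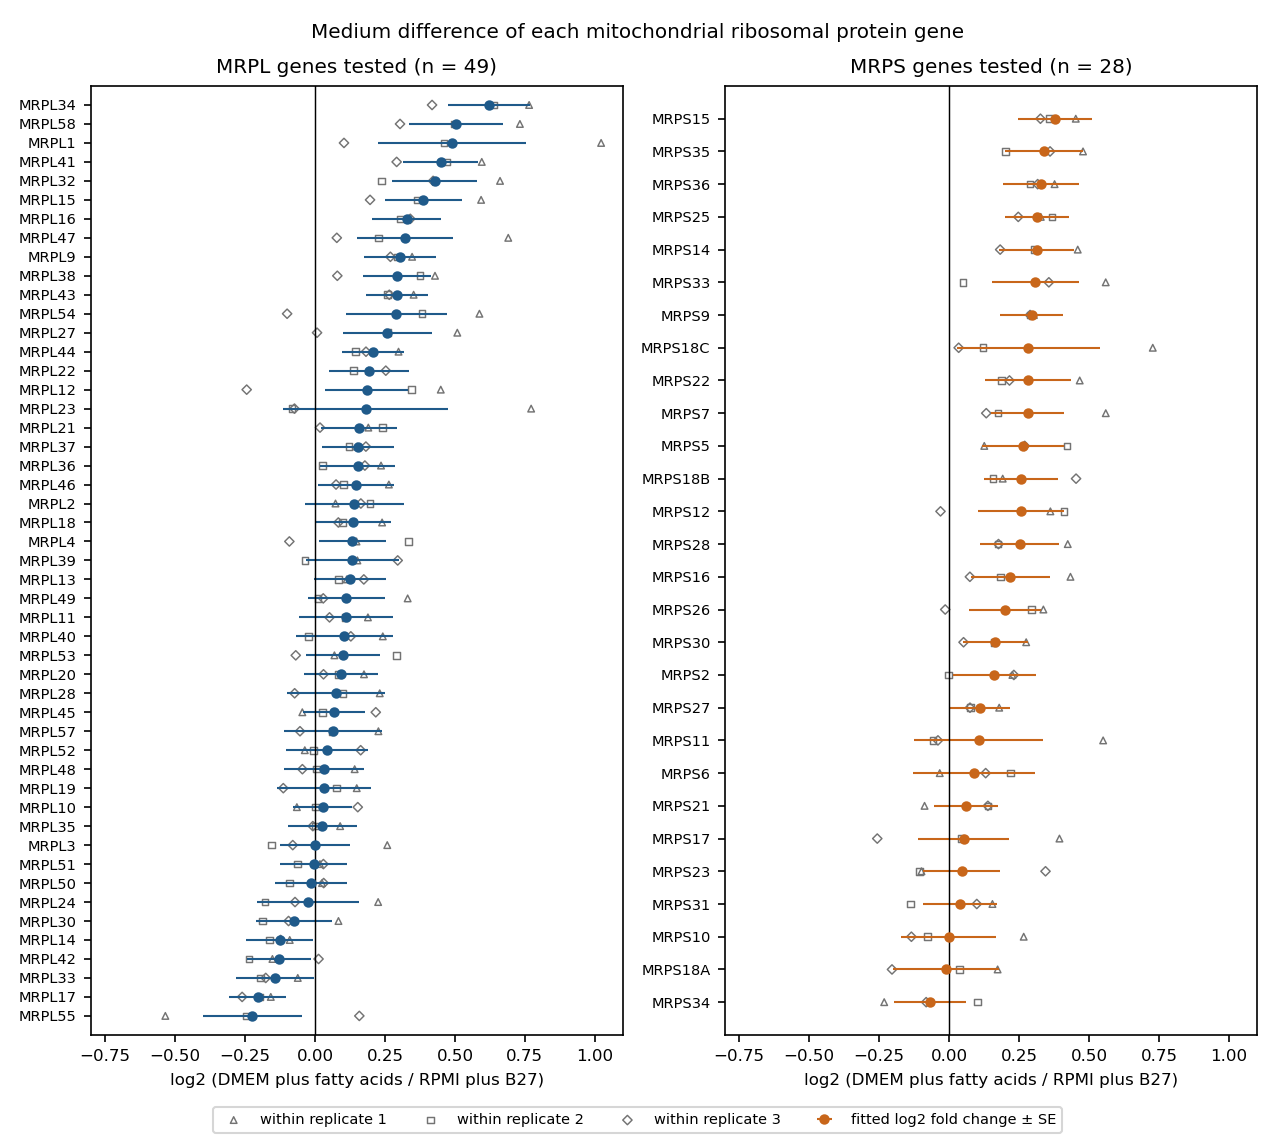
Fitted log2 fold change between media (filled circle, with bars of ± 1 SE) of each tested MRPL gene (blue) and MRPS gene (orange), with open marks for the log2 difference within each replicate number. Most circles lie right of 0, 40 of 49 for MRPL and 25 of 28 for MRPS, while the bars of 32 of the 77 genes reach 0.

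Scaling moves this shift. With scaling by the total of gene counts in place of TMM, the median over all genes rose from 0.01 to 0.12 and that of the 77 genes from 0.15 to 0.25, with 72 of 77 above 0. Relative to the median of all genes the 77 stood at 0.14 with TMM and at 0.13 with total counts.

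Among the large subunit genes, MRPL34 differed most between media. It encodes the counterpart of a very small bacterial protein of the large subunit (chr19:17292573-17306843 in RefSeq, GRCh38.p14). Its level was 47.2, 46.8 and 43.0 CPM in RPMI plus B27 replicates 1, 2 and 3, and 80.3, 73.0 and 57.5 CPM in DMEM plus fatty acids replicates 1, 2 and 3. All 3 DMEM plus fatty acids libraries lay above all 3 RPMI plus B27 libraries, and they were also more spread. The means were 45.7 ± 2.35 and 70.3 ± 11.7 CPM, which edgeR fitted as 0.62 ± 0.15 on the log2 scale (adjusted p 0.0948). With the replicate number as a block MRPL34 was the 1 gene of the 77 to pass, at an adjusted p of 0.0399 in edgeR, where 1.36% of all genes were called higher and 3.42% lower. DESeq2 also called MRPL34 alone, at an adjusted p of 0.0184, and called 2.4% of all genes higher. Over its 12 alternatives the adjusted p ran from 0.0184 to 0.265, and 2 of the 12 called it. In the GENCODE annotation 13.2% of its exon bases lie opposite another gene, and whether the counting used strand is not given in the sources used here.

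MRPL58, MRPL1, MRPL41, MRPL32 and MRPL15 followed in size. MRPL58 (the stalled-ribosome hydrolase whose ETS window is shown above) was at 15.1, 20.5 and 19.7 CPM in the 3 RPMI plus B27 libraries and at 25.1, 29.03 and 24.4 CPM in the 3 DMEM plus fatty acids libraries. Its groups did not overlap, the log2 fold change was 0.50 ± 0.17 and the adjusted p in edgeR was 0.184. MRPL41 (chr9:137551879-137552555), a protein without a bacterial counterpart, went from 67.8 ± 8.45 to 92.5 ± 8.24 CPM, or 0.45 ± 0.13 on the log2 scale, with an adjusted p of 0.154 in edgeR. MRPL32, which is matured by the m-AAA protease of the inner membrane, was at 27.4, 38.7 and 32.2 CPM and 43.4, 45.6 and 43.2 CPM, and its groups stood apart as well (0.43 ± 0.15, adjusted p in edgeR 0.205). MRPL15 had 66.7, 83.4 and 74.4 CPM against 101, 108 and 85.3 CPM, again without overlap (0.39 ± 0.14, adjusted p in edgeR 0.205). MRPL1, the protein of the L1 stalk beside the exit site of transfer RNA, stood out by its first RPMI plus B27 library, at 8.93, 16.8 and 16.0 CPM in that medium and 18.2, 23.1 and 17.2 CPM in the other. Its lower value in replicate 1 made a log2 difference of 1.02 in that pair and 0.10 in the pair of replicate 3 (0.49 ± 0.26 fitted, adjusted p in edgeR 0.382).

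**Figure D3:**
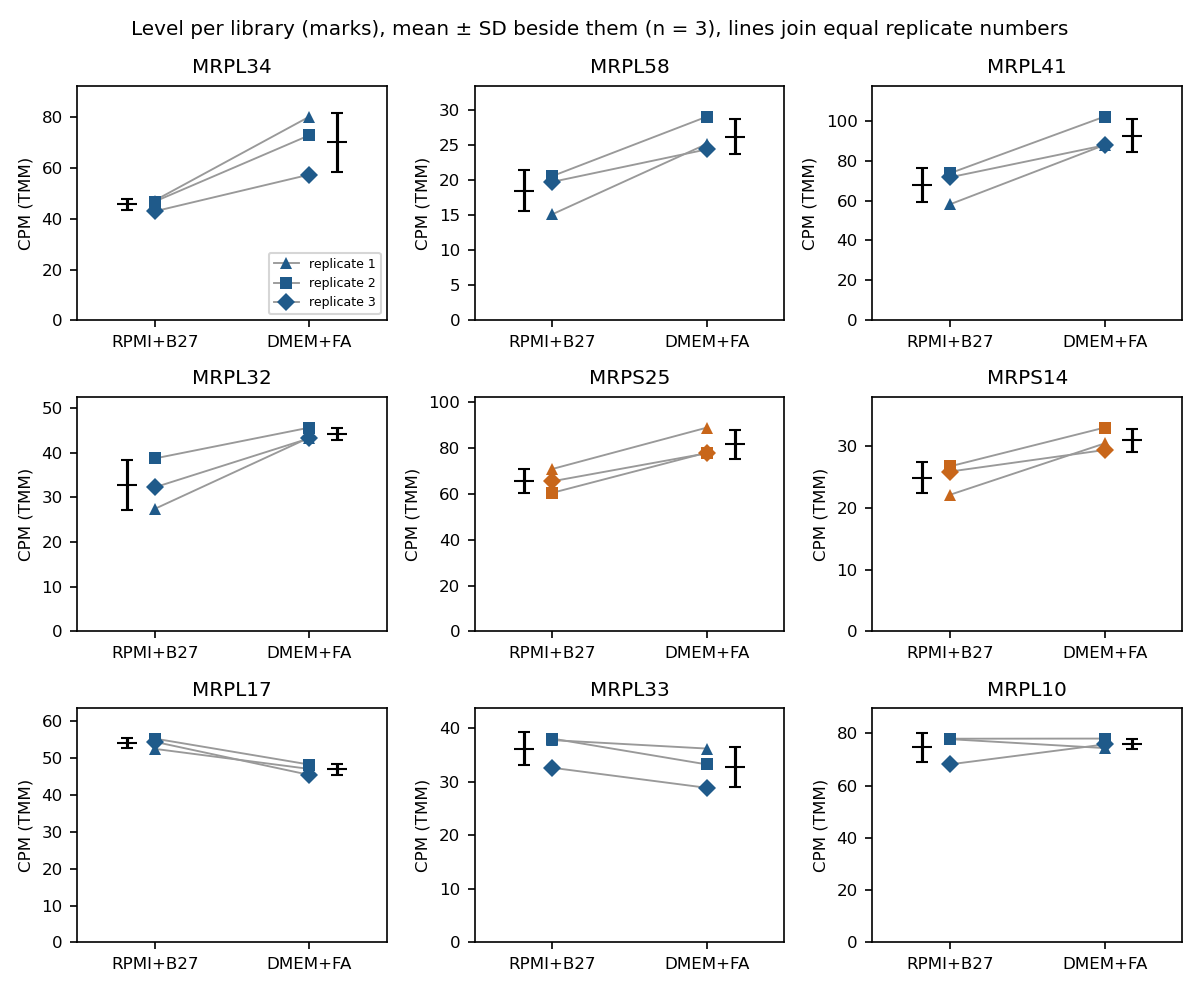
Level of 9 genes in every library, in CPM after TMM scaling on the vertical axis from 0, with lines joining libraries of the same replicate number and the mean ± SD of 3 libraries beside the marks (blue MRPL, orange MRPS). MRPL34, MRPL58, MRPL41, MRPL32, MRPS25 and MRPS14 are higher in every DMEM plus fatty acids library than in any RPMI plus B27 library, MRPL17 is lower in every one, and the groups of MRPL33 and MRPL10 overlap.

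A few large subunit genes stood on the other side of 0. MRPL17 (chr11:6680385-6683340), which lies near the mouth of the exit tunnel and is the 1 gene with an NRF1 core in its window, was at 52.6, 55.3 and 54.5 CPM in RPMI plus B27 and 47.1, 48.3 and 45.5 CPM in DMEM plus fatty acids. The difference was small but the replicates were tight, so that the groups did not overlap, and every pair was lower. Its log2 fold change was -0.21 ± 0.10 and its adjusted p in edgeR 0.35. MRPL55, a large subunit protein with a bacterial counterpart, had the lowest fitted value of all (-0.22 ± 0.18, adjusted p in edgeR 0.556). Its levels were 26.98, 21.0 and 18.3 CPM and 18.6, 17.7 and 20.5 CPM, so the first pair was far lower and the third pair higher. MRPL33 was lower in each of the 3 pairs, with 37.8, 38.1 and 32.6 CPM and 36.2, 33.2 and 28.9 CPM and a log2 fold change of -0.14 ± 0.14 (adjusted p in edgeR 0.638). MRPL14, which sits at the face towards the small subunit, was at 29.8 ± 1.67 and 27.3 ± 0.928 CPM (-0.13 ± 0.12, adjusted p in edgeR 0.625), lower in every library with fatty acids. MRPL42 (-0.13 ± 0.11) and MRPL30 (-0.07 ± 0.14) had groups that overlapped, at adjusted p of 0.602 and 0.814 in edgeR. With total-count scaling 5 of the 49 MRPL genes were below 0, while MRPL30 was above it (0.04).

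None of the 3 stalk proteins, which draw translation factors to the ribosome, passed the test between media. MRPL10, which anchors the stalk, was at 74.6 ± 5.62 CPM in RPMI plus B27 and 76.0 ± 1.83 CPM in DMEM plus fatty acids (0.03 ± 0.11 on the log2 scale, adjusted p in edgeR 0.916). MRPL11, at the base, was at 24.2 ± 3.72 and 26.2 ± 2.93 CPM (0.11 ± 0.17, adjusted p in edgeR 0.773). MRPL12, the factor-binding protein itself, was at 78.6, 86.1 and 100.4 CPM and 107, 109 and 84.8 CPM (0.19 ± 0.15, adjusted p in edgeR 0.557). MRPL12 was higher in the pairs of replicates 1 and 2 and lower in the third, and 68.2% of its exon bases are shared on the same strand with another annotated gene, AC139530.2, to which its reads could also belong. The group of proteins around the exit tunnel and the membrane contact was fitted higher in 6 of 8 with a median of 0.16, beside 0.15 over all 77, and without RPMI plus B27 replicate 1 the medians were 0.06 and 0.11. Within it MRPL45, the membrane anchor, had 45.4, 44.2 and 41.9 CPM and 44.0, 45.01 and 48.7 CPM (0.07 ± 0.11, adjusted p in edgeR 0.793).

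Genes with MRPS names were shifted the same way, 25 of 28 above 0 with a median of 0.23. MRPS15, MRPS35, MRPS36, MRPS25 and MRPS9 were those with an unadjusted p under 0.05, or 17.9% of the 28, against 7.7% of all genes higher. They were singled out after their values had been seen, apart from MRPS36. MRPS15, the counterpart of bacterial S15, had 36.3, 45.4 and 41.2 CPM in RPMI plus B27 and 49.7, 58.3 and 51.7 CPM in DMEM plus fatty acids, with every library of the second medium higher (0.38 ± 0.13, adjusted p in edgeR 0.203). MRPS25, a protein without a bacterial counterpart, had 70.9, 60.5 and 65.6 CPM and 89.0, 78.1 and 77.8 CPM, also apart (0.31 ± 0.12, adjusted p in edgeR 0.219). MRPS36, which is also known as KGD4 and belongs to the 2-oxoglutarate dehydrogenase complex rather than to the ribosome proper, had 29.7, 30.8 and 26.1 CPM and 38.6, 37.7 and 32.5 CPM (0.33 ± 0.13, adjusted p in edgeR 0.263). All of these groups stood apart in the same direction, which follows in part from their choice by p, and none passed the adjusted test. Over all 28 genes 11 (39.3%) were apart upwards and 0 downwards, against 12.8% of all genes each way. The 6 tested proteins of the decoding site and the messenger RNA channel were all fitted higher, with a median of 0.26. Without RPMI plus B27 replicate 1, 5 of the 6 were above 0 and the median was 0.19.

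The list of genes in which inherited defects cause cardiomyopathy held MRPL3, MRPL44, MRPS14 and MRPS22, which differed in how they stood between media. MRPL44, an RNase III-like protein of the large subunit, was at 41.8, 48.2 and 45.3 CPM in RPMI plus B27 and 51.5, 53.3 and 51.4 CPM in DMEM plus fatty acids (0.21 ± 0.11, adjusted p in edgeR 0.378). MRPS14, of the small subunit head, was at 22.1, 26.7 and 25.9 CPM and 30.4, 33.0 and 29.4 CPM (0.31 ± 0.13, adjusted p in edgeR 0.283). MRPS22, a small subunit protein without a bacterial counterpart, was at 21.9, 29.7 and 25.5 CPM and 30.2, 33.8 and 29.7 CPM (0.28 ± 0.15, adjusted p in edgeR 0.387). MRPL44 and MRPS14 were without overlap between media, and in MRPS22 1 library of each medium met at 29.7 CPM. MRPL3, in contrast, had 59.6, 77.1 and 70.5 CPM and 71.3, 69.2 and 66.7 CPM, so its means of 69.1 ± 8.87 and 69.1 ± 2.29 CPM were level and only its spread was smaller with fatty acids.

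The 3 relatives of bacterial S18 occupy different places, MRPS18A in the large subunit despite its name and MRPS18B and MRPS18C in the small one. MRPS18B was at 65.4, 65.3 and 50.5 CPM in RPMI plus B27 and 74.7, 72.8 and 69.2 CPM in DMEM plus fatty acids, without overlap (0.26 ± 0.13, adjusted p in edgeR 0.361). MRPS18A was at 12.02, 15.9 and 17.6 CPM and 13.6, 16.3 and 15.2 CPM (-0.01 ± 0.19, adjusted p in edgeR 0.982), and the groups covered the same range. MRPS18C was near the bottom of the family at 2.68, 4.08 and 3.62 CPM and 4.48, 4.45 and 3.71 CPM (0.28 ± 0.25, adjusted p in edgeR 0.604). Opposite-strand genes overlap 47.0% of the exon bases of MRPS18A and 40.2% of those of MRPS18C. MRPS30, the second protein with an MRPS name that is placed in the large subunit, had 36.7, 37.7 and 36.6 CPM and 44.5, 42.1 and 37.9 CPM (0.17 ± 0.12, adjusted p in edgeR 0.504).

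Summed over the family, the level was 3049, 3453 and 3347 CPM in RPMI plus B27 replicates 1, 2 and 3 and 3630, 3825 and 3584 CPM in DMEM plus fatty acids. Every library of the second medium was above every library of the first, and the means of 3283 ± 210 and 3680 ± 128 CPM gave a ratio of 1.12, or 1.21 with total-count scaling. Part of this rests on RPMI plus B27 replicate 1, without which the mean of that medium was 3400 CPM. As a share of all gene counts the family took 0.289%, 0.338% and 0.321% in the one and 0.363%, 0.393% and 0.390% in the other. By name, the MRPL genes summed to 2029 ± 166 and 2248 ± 103 CPM (ratio 1.11) and the MRPS genes to 1254 ± 44.5 and 1432 ± 31.7 CPM (ratio 1.14).

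The ratio of MRPL to MRPS counts within a library, which needs no scaling between libraries, was 1.53, 1.67 and 1.66 in RPMI plus B27 and 1.52, 1.62 and 1.57 in DMEM plus fatty acids. It was lower with fatty acids in each of the 3 pairs, by 0.046 on average, but the ranges of the 2 media overlapped. Leaving out 1 library moved this difference between -0.091 (without RPMI plus B27 replicate 1) and -0.021 (without RPMI plus B27 replicate 2, or without DMEM plus fatty acids replicate 1), with -0.026 without RPMI plus B27 replicate 3 and -0.073 without DMEM plus fatty acids replicate 2. With MRPS18A and MRPS30 counted in the large subunit the ratio was 1.63, 1.78 and 1.77 against 1.63, 1.73 and 1.67. Replicate 1 had the lowest ratio in each medium. The medians of the fitted log2 fold changes were 0.13 for MRPL and 0.23 for MRPS; without RPMI plus B27 replicate 1 they were 0.07 and 0.16, without DMEM plus fatty acids replicate 2 they were 0.085 and 0.21, and 29 of 49 MRPL and 23 of 28 MRPS were above 0 without the former. By ancestry, 39 of 47 genes with a bacterial counterpart were fitted higher (median 0.15) and 26 of 30 without one (median 0.14), with medians of 0.12 and 0.085 without RPMI plus B27 replicate 1.

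**Figure D4:**
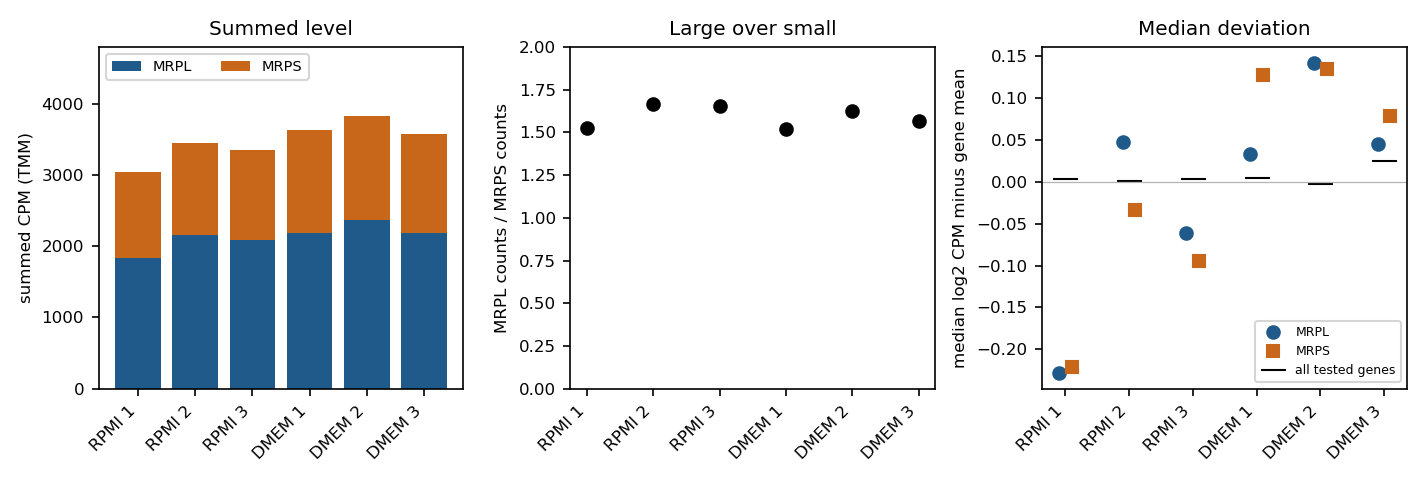
Left, summed CPM (TMM) of MRPL (blue) and MRPS (orange) genes in each library; middle, ratio of MRPL to MRPS counts; right, median over genes of log2 CPM minus the gene's mean over 6 libraries, with dashes for all tested genes. The 3 DMEM plus fatty acids bars, at 3584 to 3825 CPM, exceed the 3 RPMI plus B27 bars, the ratio stays between 1.52 and 1.67, and RPMI plus B27 replicate 1 has the lowest medians.

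Split by features of the genes, the fold changes had medians between 0.10 and 0.17. The median log2 fold change was 0.10 over 29 tested genes with an ETS core and 0.15 over 40 without, and 0.13 over 22 with a YY1 core against 0.15 over 47 without. It was 0.15 with and 0.14 without an opposite-strand start nearby, and 0.13 among the 39 genes at or above the family's median level against 0.15 among the 38 under it. Genes with a same-named pseudogene in GENCODE, whose reads cannot always be told apart from the gene's own, had a median of 0.10 and the others 0.17.

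Levels within the family spanned a wide range. Mean CPM over 6 libraries ran from 2.16 to 105.6 among the tested genes, with a median of 40.6 (19.7 over all tested genes), and 73 of 77 lay between 10 and 100 CPM. Per kilobase of the median annotated coding transcript, the highest were MRPL49 at 139.6 ± 14.8 CPM per kb, MRPL28 at 108 ± 16.0 CPM per kb and MRPL51 at 101 ± 7.36 CPM per kb (mean ± SD over 6 libraries). The order at the top depends on the length used, since MRPL49 ranked 30 of 78 by the length of its longest principal transcript. The groups overlapped for each of these 3 large subunit genes, with log2 fold changes of 0.11 ± 0.14, 0.07 ± 0.18 and -0.01 ± 0.12. At the bottom stood MRPS18C and MRPL23, the counterpart of a bacterial protein at the exit tunnel, with 5.76 and 3.36 CPM per kb. MRPL23 had 1.43, 2.34 and 2.31 CPM in RPMI plus B27 and 2.50, 2.21 and 2.19 CPM in DMEM plus fatty acids (0.18 ± 0.29).

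MRPS24, of the small subunit, was the 1 gene that failed the filter on low counts. Its row held 2, 1 and 0 reads in RPMI plus B27 and 2, 1 and 2 reads in DMEM plus fatty acids. In RefSeq it lies wholly inside the readthrough gene URGCP-MRPS24, whose own row was 0 in all 6 libraries. Reads over more than 1 gene were set aside in the counting, and the part of this overlap in the low row was not tested. In GENCODE 41 of the 78 genes share exon bases with another gene, 16 of them on the same strand and 29 on the opposite strand. Relatives left out by the choice of names were the antisense, divergent, readthrough and pseudogene rows, of which MRPS31P5 was the most read, with 531, 367 and 340 reads in RPMI plus B27 and 436, 547 and 412 in DMEM plus fatty acids.

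Genes that work with these proteins were also mostly fitted higher in DMEM plus fatty acids. Of 26 tested genes for ribosome assembly and RNA modification 21 were fitted higher (median 0.15), 5 of them with an unadjusted p under 0.05, against 7.7% of all genes, and 0 past the adjusted test. MRM1, which methylates the large ribosomal RNA, went from 5.03 ± 0.884 to 8.40 ± 1.34 CPM (0.74 ± 0.23, adjusted p in edgeR 0.166), and MTG1, a GTPase of large subunit assembly, from 22.3 ± 6.75 to 35.0 ± 1.65 CPM (0.65 ± 0.23, adjusted p in edgeR 0.206). RBFA, a small subunit assembly factor, went from 15.2 ± 3.604 to 22.6 ± 0.735 CPM (0.57 ± 0.19). Of 12 mitochondrial translation factors 11 were fitted higher (median 0.26), led by MRRF, the ribosome recycling factor, at 32.2, 30.4 and 31.9 CPM and 53.9, 46.3 and 38.9 CPM (0.56 ± 0.15, adjusted p in edgeR 0.120), and GFM1, an elongation factor, at 101 ± 20.7 and 141 ± 11.8 CPM. Both had groups apart, and none of the 12 passed the adjusted test. Of 23 genes for expression of mitochondrial DNA 19 were fitted higher (median 0.17), with 6 higher and 1 lower at an unadjusted p under 0.05, against 7.7% and 9.98% of all genes. TFAM, which packages and transcribes mitochondrial DNA, was at 44.8 ± 8.71 and 60.8 ± 3.68 CPM (0.44 ± 0.16), while POLRMT, the mitochondrial RNA polymerase, was at 61.0 ± 15.6 and 43.1 ± 3.13 CPM (-0.50 ± 0.19). Without RPMI plus B27 replicate 1 this list had 12 of 23 above 0 and a median of 0.02.

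The 5 ribosomal proteins known under other symbols were mixed, with 3 fitted higher and 2 lower. PTCD3 went from 115 ± 4.51 to 129 ± 5.88 CPM and DAP3 from 104 ± 12.3 to 119 ± 2.33 CPM. GADD45GIP1 had the lowest fitted value of the 5, from 56.2 ± 5.61 to 46.9 ± 4.28 CPM (-0.26 ± 0.13). Of the factors whose core sequences were searched, GABPA was at 35.6 ± 3.71 and 44.9 ± 2.39 CPM, YY1 at 134 ± 11.9 and 126 ± 7.41 CPM and NRF1 at 14.9 ± 1.145 and 14.5 ± 1.32 CPM, and none passed the adjusted test.

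The nuclear subunits of the respiratory chain leaned the same way, and the messages that mitochondrial ribosomes translate leaned the other way. Of 38 nuclear subunits of complex I 35 were fitted higher (median 0.23) and of 39 of complexes II to V 37 were (median 0.29). Of the 13 messages encoded by mitochondrial DNA 1 was fitted higher, with a median of -0.39 and 5 lower at an unadjusted p under 0.05, against 9.98% of all genes. Their pairs were unequal, with medians of 0.01, -0.48 and -0.57 for replicates 1, 2 and 3. The cytosolic ribosomal proteins, the counterparts outside mitochondria, were fitted lower in 72 of 74, with a median of -0.28 and 18 lower at an unadjusted p under 0.05 (9.98% of all genes were). Their pairs were unequal too, with medians of -0.51, -0.14 and -0.13, and without RPMI plus B27 replicate 1 the median was -0.16. In 45 of the 74 every DMEM plus fatty acids library was below every RPMI plus B27 library, against 12.8% of all genes. None of the genes in these 4 groups passed the adjusted test in edgeR without the replicate block. With the block 1 did, NDUFB9, a subunit of complex I, at 99.5 ± 19.4 and 146 ± 28.7 CPM (0.55 ± 0.10, adjusted p in edgeR 0.0408). Of all genes 1.36% were called higher and 3.42% lower in that fit.

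**Figure D5:**
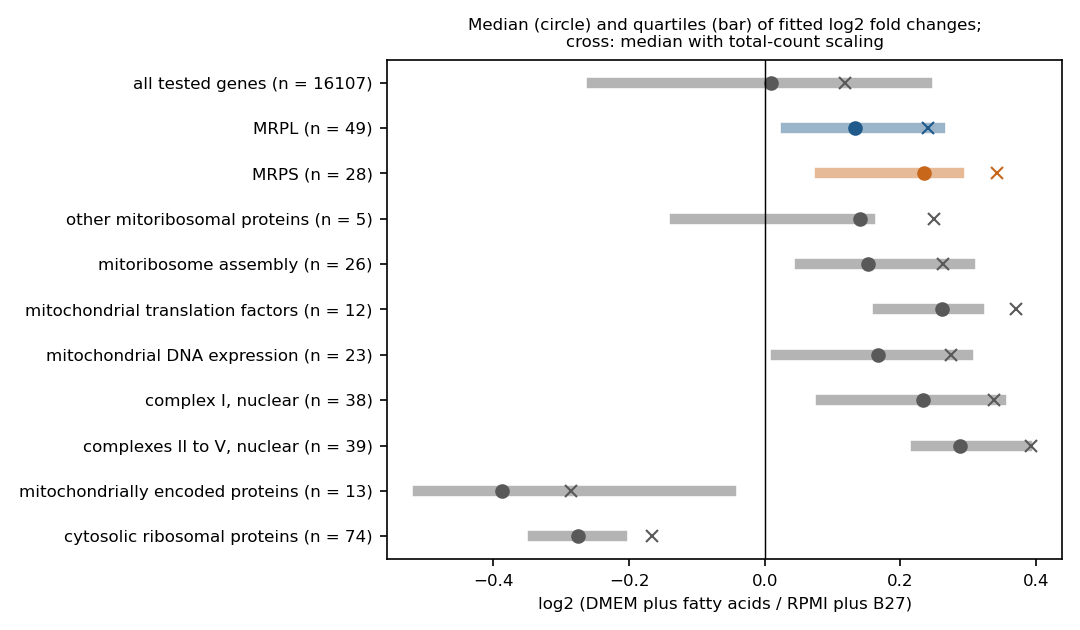
Median (circle) and quartiles (bar) of fitted log2 fold changes between media with TMM scaling, and the median with total-count scaling (cross), for MRPL genes, MRPS genes and related groups of genes. MRPL (median 0.13) and MRPS (0.23) lie with the assembly, translation and respiratory chain groups above the median of all genes (0.01), while the mitochondrially encoded messages (-0.39) and the cytosolic ribosomal proteins (-0.28) lie below it.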

How the data were processed

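Per the submitters' processing notes the authors used STAR, HTSeq and build hg38; versions, annotation and strand setting are not given in the sources used here. The deposited values are raw counts per gene symbol. Rows that name no gene (12.8% to 15.6% of a library) were left out. edgeR 4.0.16 (R 4.3.3, limma 3.58.1) was run with TMM scaling, quasi-likelihood tests and its filter (minimum count 10, total 15), over 16107 genes, with Benjamini-Hochberg adjustment at 0.05. It was also run on simulated counts with larger changes and a fixed, smaller spread than in these data. That run cannot show how well shifts as small as those described here are found. DESeq2 1.42.0, a replicate block, other scalings and filters and left-out libraries were alternatives. Same-numbered libraries deviated together (correlations 0.31, 0.43 and 0.37, against -0.24 to -0.14 for other numbers). Deviations were taken from the mean of each medium, so positive values for equal numbers bring negative ones for the others. The labels state no pairing, and the numbers were read as pairs from these correlations. Lengths and overlaps came from GENCODE 29, positions and promoters from RefSeq.

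Genes given with values were those called in either fit, the 6 highest and 6 lowest fold changes, the stalk, S18 and cardiomyopathy lists, the extremes per length, the gene that failed the filter and 5 by role. Others are marked. Members and lists were chosen with earlier results of these data known. Counts limit the precision of rows with few reads, and p-values cover the spread between cultures of 1 cell line.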

Additional observations from a re-analysis of the deposited data

How the results depend on the processing

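The number of all genes called moved with the settings, from 219 to 539 without the filter on low counts, 119 with a stricter filter, 770 with the replicate block and 1212 in DESeq2, and to between 3 and 131 when 1 library was left out. Of the mitochondrial ribosomal proteins 1 was called with the replicate block and 1 in DESeq2, MRPL34 each time, with log2 fold changes of 0.61 and 0.61, and 0 otherwise. Of the genes in the related and marker lists 11 were called, 17 without the filter, 5 with the stricter one, 22 with the replicate block, 29 in DESeq2 and 0 to 10 without 1 library. The 11 were 7 fibroblast and stromal, 3 smooth muscle and 1 epicardial marker, all lower in DMEM plus fatty acids, where 1.07% of all genes were called lower. The 22 were cell type markers too (3.42% of all genes were called lower and 1.36% higher with the block). The related mitochondrial lists counted here, which leave out the nuclear respiratory chain subunits, held 0 calls in either fit. Total-count scaling raised the median to 0.24 for MRPL and 0.34 for MRPS and the ratio of summed levels to 1.21.

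Of 348 values of 29 named members, 323 kept their sign and their side of the threshold, 2 passed it and 23 changed sign. Members with a changed sign included MRPL23, fitted at 0.18, and MRPL11 and MRPL49, both at 0.11, beside a median of 0.15 over the 77 genes. With total-count scaling MRPL30 stood at 0.035, MRPL51 at 0.11 and MRPS18A at 0.10. MRPL3 stood at -0.0077 with relative log expression scaling, -0.0039 with the stricter filter and -0.0077 in DESeq2, MRPL51 at 0.0077 and MRPS18A at 0.00081 without the filter, and MRPS18A at 0.00041 with the block. Leaving out 1 library gave ranges of -0.032 to 0.059 for MRPL10, -0.012 to 0.20 for MRPL11, -0.019 to 0.29 for MRPL23, -0.082 to 0.19 for MRPL28, -0.10 to 0.086 for MRPL3, -0.011 to 0.19 for MRPL49, -0.076 to 0.050 for MRPL51 and -0.15 to 0.11 for MRPS18A. The cause was not tested. Genes with few reads, such as MRPL23 and MRPS18C, are limited by depth.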
